A study of Mus musculus with 6 samples.

Results

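Fos, Fosb, Fosl1, Fosl2, Jun, Junb, Jund, Egr1, Atf3 and Myc, 10 genes of the AP-1 and immediate-early transcription factor class, were examined in immortalized mouse pancreatic fibroblasts. They were chosen by symbol, and each matched 1 of the 14831 genes in the count table. The 6 libraries came from separate wells of confluent cells in serum-containing medium, 3 labelled WT and 3 labelled KO (genotype Gli2-/-;Gli3-/-, strain given as mixed). The study's methods describe such lines as outgrowths of adult pancreas from mice with floxed Gli alleles. Control lines received an eGFP adenovirus and a dsRed lentivirus, KO lines an eGFP and a Cre adenovirus. Infected cells were sorted by flow cytometry, and recombination was checked by western blot and qPCR. The floxed alleles and the eGFP virus were therefore common to both groups, and how many lines the wells of a group represent was not given. Reads on polyadenylated RNA were counted per gene.

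AP-1 is a dimeric transcription factor built from JUN family proteins, which pair with each other, with FOS family proteins or with ATF proteins such as ATF3, and which bind the sequence TGAGTCA. FOS family proteins need a JUN partner to bind this site stably. Many of these genes are immediate-early genes, transcribed within minutes of a growth factor, serum or stress signal without new protein synthesis. ERK signalling reaches Fos and Egr1 through SRF and ELK factors, and JNK signalling acts on JUN itself. In fibroblasts AP-1 drives genes of matrix breakdown and proliferation, and MYC drives ribosome production and growth.

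The libraries held 31728420 to 33905521 counts in the WT-labelled group and 32781730 to 41035931 in the KO-labelled group. Whole-gene counts of the targeted genes go against the labels: those of Gli2 and Gli3 were higher in the KO-labelled wells, with log2 fold changes of 1.05 and 1.71. The counts do not show which exons they came from, so they cannot show whether the floxed parts were lost. Every direction below is therefore that of the labels. The collagen genes Col1a1 and Col1a2 were at 15982 and 13233 CPM (the count relative to the library size as scaled by the TMM method) in the WT-labelled wells, and the 10 fibroblast markers in the table summed to between 44836 and 47249 CPM there and between 36791 and 38541 in the KO-labelled wells. Of the 12 fibroblast markers listed, Pdpn and Fap were not found in the count table. Thy1 was not tested, at 4, 1 and 0 counts in the WT-labelled wells against 19, 15 and 9. Of the 9 tested, 7 fell and 1 rose at an adjusted p under 0.05. The log2 fold changes, KO-labelled over WT-labelled, were -5.60 for Lum, -1.55 for Dcn, -0.94 for Col3a1, -0.90 for Pdgfra, -0.66 for Pdgfrb, -0.19 for Col1a2 and -0.13 for Vim, against 1.67 for S100a4 and 0.01 for Col1a1. The 4 mesothelial markers of the list, Msln, Upk3b, Wt1 and Lrrn4, summed to between 21.5 and 24.4 CPM in the WT-labelled wells and between 267.0 and 267.4 in the KO-labelled wells, and all 4 were called higher there. The 5 epithelial markers in the table summed to between 20.2 and 22.7 CPM and to between 44.0 and 45.5. Krt7, Cela1 and Cdh1 were higher in the KO-labelled wells (log2 fold changes of 2.40, 0.87 and 1.08) and Sox9 was lower (-0.50). Krt8 was not tested, at 1, 0 and 2 counts against 7, 9 and 12. The others of the 12 listed (Epcam, Krt18, Krt19, Cpa1, Prss2, Amy2a5 and Ptf1a) were not found in the count table. The 3 macrophage markers in the table summed to between 17.1 and 18.2 CPM in the WT-labelled wells and between 16.2 and 16.7 in the KO-labelled wells. Cd14 was lower in the KO-labelled wells at an adjusted p under 0.05 (log2 fold change of -0.18). Cd68 (0.42) and Csf1r (0.11) did not pass. The other 6 leukocyte markers and the 5 endothelial markers listed were not found in the count table, so no level can be given for them. In such bulk samples fewer cells of a type and less RNA per cell cannot be told apart. These marker shifts separate the groups in the same way as the labels do, and their part in the results below was not tested.

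All 10 genes passed the filter on low counts. By the quasi-likelihood test of edgeR with Benjamini-Hochberg adjustment, 4 rose in the KO-labelled wells at an adjusted p under 0.05 (Fos, Junb, Egr1 and Myc), 2 fell (Jun and Jund), and 4 did not pass (Fosb, Fosl1, Fosl2 and Atf3). Of all 14289 genes tested, 29.9% (4277) rose and 28.8% (4114) fell by the same rule, a split that upper-quartile scaling moved to 5185 and 3284. With a change of at least 1.5-fold required as well, 2 of the 10 were called higher (Fos and Junb) and 0 lower, against 11.6% and 6.10% of all genes. The groups did not overlap for 6 of the 10, against 64.2% of all genes. The share of the 10 that differed was thus near that of the genes at large, and what follows concerns which genes moved and by how much. The median absolute log2 fold change was 0.46 over the 10 and 0.22 over all genes tested. With 3 wells a group, no two-sided exact permutation test of 1 gene can reach a p below 0.1. The p-values measure the spread between these wells, which may be technical.

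**Figure D1:**
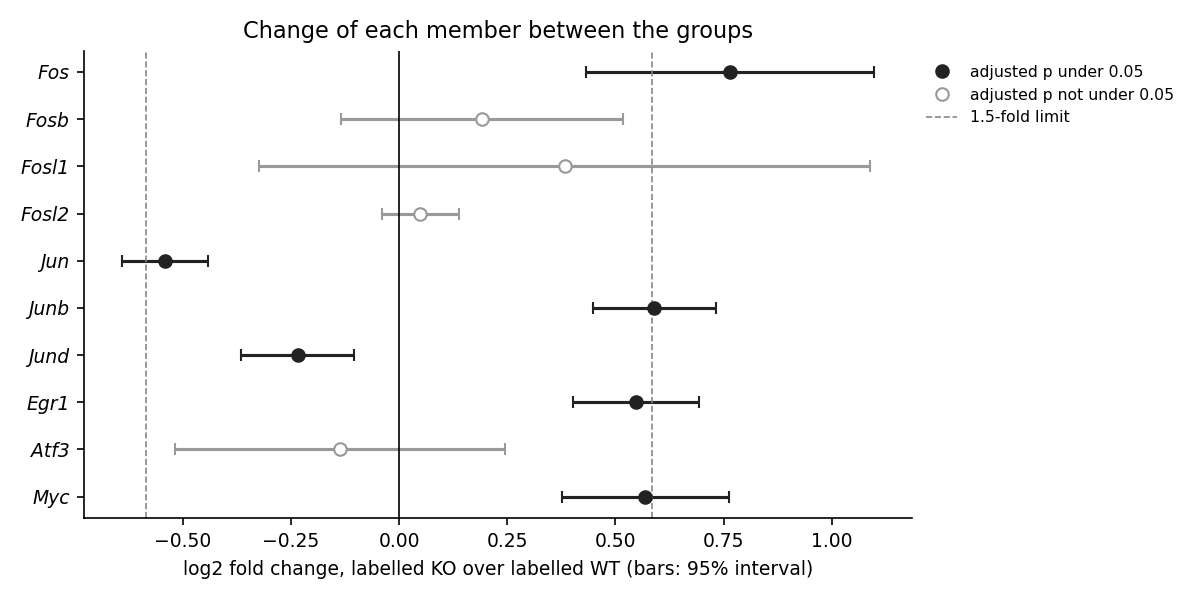
Log2 fold change of each of the 10 genes, KO-labelled over WT-labelled libraries (3 each), from edgeR's quasi-likelihood fit, with 95% intervals as bars, filled points at an adjusted p under 0.05 and dashed lines at 1.5-fold. Fos, Junb, Egr1 and Myc lie on the positive side at 0.55 to 0.76, while Jun and Jund lie on the negative side at -0.54 and -0.23.

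In the FOS family, Fos was the member that changed. Fos (ENSMUSG00000021250.13, chromosome 12, bases 85473890 to 85477273, plus strand) encodes the founding partner of JUN in AP-1. It had 70, 55 and 48 counts in the WT-labelled wells against 101, 130 and 104 in the KO-labelled ones, or 2.23, 1.64 and 1.504 CPM against 2.85, 3.12 and 3.15. Every KO-labelled well was above every WT-labelled well. Its log2 fold change was 0.76, with an SE (standard error) of 0.15 and an adjusted p of 8.84e-04, a 1.70-fold difference with an interval from 1.35 to 2.14. Fos is a gene of low counts here, and dropping any 1 library gave log2 fold changes from 0.65 to 0.95.

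Fosl2, which encodes FRA-2, was by far the most abundant FOS family transcript and was nearly level between the groups. It lies on chromosome 5 (bases 32135801 to 32157842) and had 3901, 3810 and 3564 counts against 4330, 4887 and 4046, or 124, 114 and 112 CPM against 122, 117 and 123. The groups overlapped, and the log2 fold change was 0.05 (adjusted p = 0.327). Its interval, from -0.04 to 0.14, bounds any difference at 1.10-fold higher in the KO-labelled wells. WT replicate 1 was the highest of the 6 wells, and without it the log2 fold change was 0.10 and the adjusted p 0.0317, whereas leaving out the other libraries gave adjusted p values up to 0.775.

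Fosb and Fosl1 were the weakest of the family. Fosb (chromosome 7, bases 19302696 to 19310051) is an immediate-early gene like Fos, and had 50, 57 and 63 counts against 65, 84 and 72. Its groups overlapped on the CPM scale, at 1.60, 1.70 and 1.97 against 1.84, 2.02 and 2.18, with a log2 fold change of 0.19 (adjusted p = 0.290) and an interval from -0.13 to 0.52. Fosl1 encodes FRA-1, a FOS protein that lacks the transactivation domain of FOS. It lies on chromosome 19 (bases 5447547 to 5455946) and had 64, 24 and 27 counts against 70, 60 and 41, or 2.04, 0.717 and 0.846 CPM against 1.98, 1.44 and 1.24. WT replicate 1 was the highest of all wells, while the other two WT-labelled wells were below all KO-labelled wells. Fosl1 had a log2 fold change of 0.38 (SE 0.32, adjusted p = 0.334) with an interval from -0.32 to 1.09. That value rests on 1 library, since without WT replicate 1 it was 0.99 with an adjusted p of 0.00615, and without each of the other libraries it lay between 0.11 and 0.51, with adjusted p values up to 0.809. Of the merged exons of Fosl1, 1163 bases (57.2%) overlap Ccdc85b on the opposite strand, where strand use in counting is not known, and Ccdc85b itself ranged only from 33.5 to 36.4 CPM.

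The JUN family moved in opposite directions. Jun (ENSMUSG00000052684.4, chromosome 4, bases 95049034 to 95052222, minus strand) encodes c-JUN, the strongest activator of the family. It had 954, 1014 and 913 counts in the WT-labelled wells against 725, 861 and 668, or 30.4, 30.3 and 28.6 CPM against 20.5, 20.7 and 20.2. The groups were far apart and each was tight. The log2 fold change was -0.54 (SE 0.05, adjusted p = 5.65e-07), and 0.687 of the WT-labelled level was left in the KO-labelled wells (interval 0.641 to 0.737). Dropping any 1 library kept it between -0.57 and -0.53.

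Junb encodes a JUN protein known as a weaker activator that can restrain c-JUN. Junb (ENSMUSG00000052837.6, chromosome 8, bases 84974484 to 84978718, minus strand) had 1935, 1808 and 1580 counts against 3036, 3533 and 2572, or 61.7, 54.0 and 49.5 CPM against 85.7, 84.8 and 77.9. All KO-labelled wells were above all WT-labelled wells. Its log2 fold change of 0.59 (SE 0.07, adjusted p = 6.31e-06) corresponds to 1.51-fold, with an interval from 1.36 to 1.66, and so sits on the 1.5-fold limit. Leaving out WT replicate 2 or 3, or KO replicate 1 or 2, took it under that limit (0.57, 0.52, 0.56 and 0.57), with adjusted p values of at most 1.79e-04.

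Jund, the JUN gene that is expressed steadily in most cells, had 5375, 5033 and 4601 counts against 5002, 5448 and 4089, or 172, 150 and 144 CPM against 141, 131 and 124. It lies on chromosome 8 as well (bases 70698949 to 70700616). The lowest WT-labelled well was just above the highest KO-labelled well. Jund fell by 0.23 on the log2 scale (SE 0.06, adjusted p = 0.00490), and by limma on the deposited log2 values the adjusted p was 0.0673, the highest of a range that began at 3.41e-04 with DESeq2. A noncoding gene on the opposite strand, Gm11175, overlaps 52.6% of its exon bases and was at 4.48 to 5.76 CPM. Smaller parts of the exons of Junb (7.52%) and Jun (7.28%) overlap Prdx2 and Junos on the opposite strand.

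Ratios of 2 genes within a library cannot be moved by scaling between libraries. They are given for pairs with Jun because Jun fell while others rose, and so describe the changes above in another form. There were 2.03, 1.78 and 1.73 Junb counts per Jun count in the WT-labelled wells, and 4.19, 4.10 and 3.85 in the KO-labelled wells. Fos counts per Jun count were 0.0734, 0.0542 and 0.0526 against 0.139, 0.151 and 0.156, and Egr1 counts per Jun count 0.418, 0.402 and 0.375 against 0.844, 0.856 and 0.844. No ratio to Jun overlapped between the groups. Egr1 counts per Fos count, a ratio of genes that rose together, overlapped between the groups at 5.70, 7.42 and 7.13 against 6.06, 5.67 and 5.42. These ratios carry no correction for gene length, so they compare wells and not the levels of the genes in a pair.

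Promoter windows of Fos, Junb and Jun are shown because these 3 AP-1 genes changed by the most, the former 2 upward and Jun downward. Each runs from 250 bases before to 50 bases from the RefSeq start on GRCm38.p6, read 5′ to 3′ on the strand of the gene, with capitals marking TGACG (the core of the cAMP response element), the TATA box TATAAA and the variant response element TGACATCA where found on either strand.
Fos (chr12:85473640-85473939, plus strand): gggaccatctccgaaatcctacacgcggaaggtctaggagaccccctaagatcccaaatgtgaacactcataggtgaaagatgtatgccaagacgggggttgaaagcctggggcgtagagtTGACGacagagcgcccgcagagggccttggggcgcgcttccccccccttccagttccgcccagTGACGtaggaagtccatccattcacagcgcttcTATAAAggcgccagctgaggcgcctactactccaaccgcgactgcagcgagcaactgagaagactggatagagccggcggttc
Junb (chr8:84978699-84978998, minus strand): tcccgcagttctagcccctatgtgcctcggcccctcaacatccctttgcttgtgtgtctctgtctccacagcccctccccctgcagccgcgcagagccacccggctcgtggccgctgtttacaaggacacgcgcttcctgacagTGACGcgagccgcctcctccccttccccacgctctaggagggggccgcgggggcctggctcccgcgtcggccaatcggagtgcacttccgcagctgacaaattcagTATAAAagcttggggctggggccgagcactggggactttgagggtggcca
Jun (chr4:95052173-95052472, minus strand): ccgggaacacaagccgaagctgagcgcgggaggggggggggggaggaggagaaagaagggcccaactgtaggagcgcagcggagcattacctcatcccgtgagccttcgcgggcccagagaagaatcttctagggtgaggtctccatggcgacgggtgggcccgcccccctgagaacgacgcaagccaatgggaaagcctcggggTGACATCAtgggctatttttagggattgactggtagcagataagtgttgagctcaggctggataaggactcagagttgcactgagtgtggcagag
The motifs searched on both strands were TGACG, the full response element TGACGTCA (which contains TGACG), its variant TGACATCA, the AP-1 site TGANTCA, the CArG box bound by SRF, the TATA box and the GLI site GACCACCCA. Of all 32851 windows in the RefSeq set they were present in 20.8%, 1.79%, 3.62%, 7.81%, 1.63%, 13.6% and 0.253%, respectively. The Fos window holds TGACG at -129 to -125 and at -66 to -62, and TATAAA at -33 to -28, counted from the start at 1. Junb has TGACG at -106 to -102 and TATAAA at 1 to 6. The RefSeq start of the Junb window lies upstream of the gene start given above (base 84978718), so these positions hold for the RefSeq start only. In Jun the only match was TGACATCA at -45 to -38. Windows were found for 7 of the 10 genes (also Fosb, Fosl2, Jund and Atf3), and those of Fosb and Atf3 hold 1 TGACG each. The letters of the full response element, the AP-1 site, the CArG box and the GLI site were not in any of the 7 windows, which covers these stretches alone.

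Per length of exon, Jund was the most abundant of the 10 in both groups, at 93.1 ± 8.61 CPM per kb in the WT-labelled wells and 79.1 ± 5.25 in the KO-labelled wells (SD, n = 3 each). Junb followed at 23.9 ± 2.69 and 36.0 ± 1.86, and Fosl2 at 12.0 ± 0.711 and 12.5 ± 0.308. Jun and Myc exchanged places: Jun was at 9.34 ± 0.319 and Myc at 6.21 ± 0.930 CPM per kb in the WT-labelled wells, and Jun at 6.42 ± 0.0669 and Myc at 9.19 ± 0.681 in the KO-labelled wells, with no overlap between the 2 genes in either group. Egr1 came next at 2.65 ± 0.233 and 3.87 ± 0.0682. Atf3, Fos and Fosl1 were between 0.352 and 1.78 in all wells, and neighbours in this order overlapped: Fos with Fosl1 in the WT-labelled wells, and Atf3 with Fos in the KO-labelled wells. Fosb was lowest at 0.281 ± 0.0312 and 0.322 ± 0.0277. Among 14280 tested genes with a length, Jund ranked above 97.0%, Junb above 89.1% and Fos above 22.7%.

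**Figure D2:**
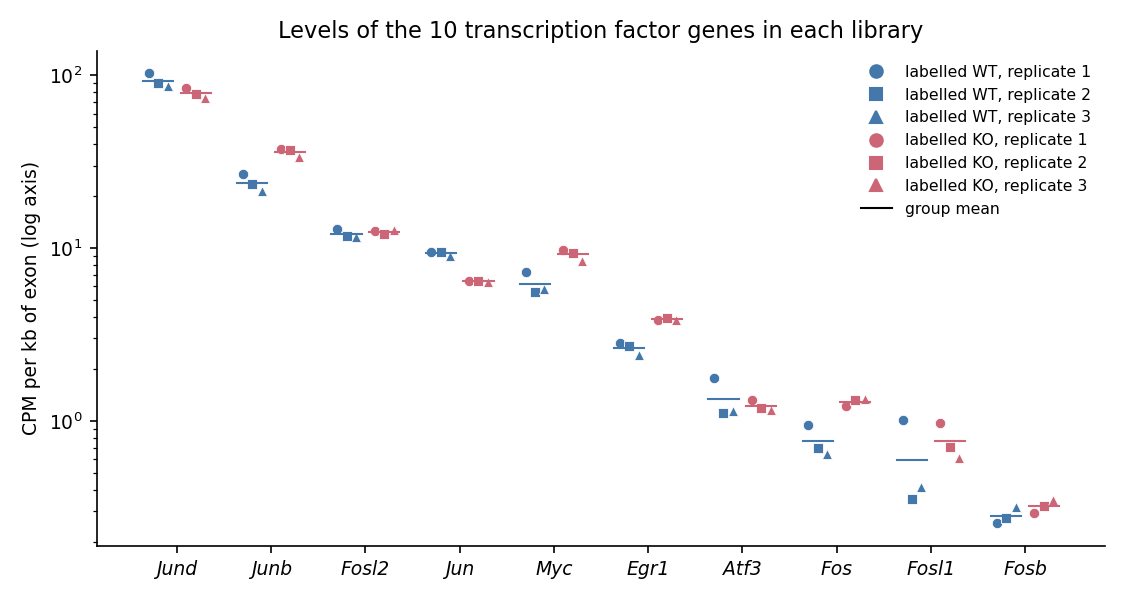
CPM per kb of merged exon (log axis) for each of the 10 genes, with 1 point per library, the WT-labelled group in blue and the KO-labelled group in red, marker shape giving the replicate and lines the group means. The levels run from Jund at 74.3 to 103 down to Fosb at 0.256 to 0.349, and Jun and Myc swap order between the groups.

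These levels set the make-up of each family. Of the summed FOS family level per kb, Fosl2 made up 85.3, 89.9 and 89.4% in the WT-labelled wells and 83.6, 83.7 and 84.6% in the KO-labelled wells. The share of Fos was 5.53 ± 0.694% and 8.71 ± 0.606% (SD, n = 3 each), without overlap, and those of Fosl1 (4.20 ± 2.16% and 5.14 ± 1.19%) and Fosb (2.08 ± 0.377% and 2.17 ± 0.202%) overlapped. In the JUN family, Jund made up 73.7 ± 0.392% and 65.1 ± 0.805%, Junb 18.9 ± 0.456% and 29.6 ± 0.625%, and Jun 7.42 ± 0.484% and 5.29 ± 0.273%. Junb thus took 10.7 percentage points more of the family in the KO-labelled wells, and no share of a JUN gene overlapped between the groups. The summed level of the JUN family itself overlapped, at 126 ± 11.5 and 122 ± 6.95 CPM per kb, as did that of the FOS family, at 13.7 ± 1.20 and 14.8 ± 0.334. The shares depend on the exon length taken for each gene, while the direction of the Fos, Jun, Junb and Jund shares between the groups was kept under other lengths.

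**Figure D3:**
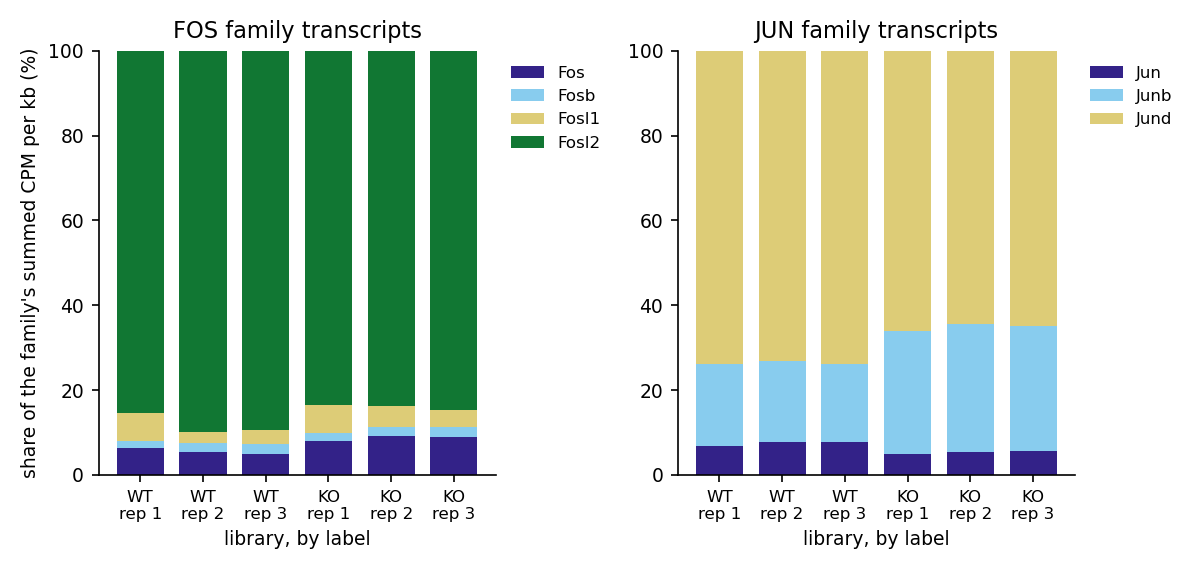
Share of each gene in the summed CPM per kb of the FOS family (left) and the JUN family (right), in percent, with 1 stacked bar per library. Fosl2 fills 83.6 to 89.9% of the FOS bars, and the Junb part of the JUN bars is 18.4 to 19.3% in the WT-labelled and 29.0 to 30.3% in the KO-labelled libraries.

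Egr1, a zinc finger factor that is induced by ERK signalling through SRF, rose with Fos and Junb. Egr1 (ENSMUSG00000038418.7, chromosome 18, bases 34859823 to 34864984) had 399, 408 and 342 counts in the WT-labelled wells against 612, 737 and 564, or 12.7, 12.2 and 10.7 CPM against 17.3, 17.7 and 17.1. All KO-labelled wells were above all WT-labelled wells and close to each other. The log2 fold change was 0.55 (SE 0.07, adjusted p = 1.60e-05), which is 1.46-fold with an interval from 1.32 to 1.62. It lies just under the 1.5-fold limit and passed it without WT replicate 1 (0.60) and under upper-quartile scaling (0.60).

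Myc, which encodes the growth regulator MYC, rose to a similar extent. It is on chromosome 15 (bases 61985391 to 61990374) and had 620, 508 and 501 counts against 937, 1065 and 756, or 19.8, 15.2 and 15.7 CPM against 26.5, 25.6 and 22.9. The groups did not overlap, although WT replicate 1 stood above the other WT-labelled wells. The log2 fold change of Myc was 0.57 (SE 0.09, adjusted p = 1.20e-04), or 1.48-fold with an interval from 1.30 to 1.70. Without WT replicate 1 it was 0.70 and without KO replicate 3 it was 0.63, both past the 1.5-fold limit.

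Atf3, a stress-induced factor of the ATF family that represses many of its targets, had 120, 80 and 78 counts against 100, 106 and 82. In CPM these were 3.83, 2.39 and 2.44 against 2.82, 2.54 and 2.48, so that WT replicate 1 was highest and the remaining 5 wells lay together. Atf3 (chromosome 1, bases 191170296 to 191218039) had a log2 fold change of -0.14 (adjusted p = 0.526) and an interval from -0.52 to 0.24, and without WT replicate 1 the sign turned, to 0.11.

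The 10 genes differed widely in how steady they were from well to well. The SD of log2 CPM within groups, pooled over both, was 0.04 for Jun and 0.62 for Fosl1. Compared with genes within 2-fold of the same mean CPM, the spread of Fosl1 was larger than that of 97.7% of 1728 genes, of Junb (0.13) than 97.2% of 4305, of Myc (0.17) than 97.1% of 4004 and of Jund (0.11) than 96.4% of 2658. Atf3 (86.9%), Fosl2 (83.3%), Egr1 (68.8%) and Fos (67.8%) were nearer the middle. Jun and Fosb were steadier than most genes of their level, above 15.7% of 4275 and 24.7% of 1652.

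Part of this spread was shared. WT replicate 1 was the highest of its group for 9 of the 10 genes, all but Fosb, where 37.9% of 14167 tested genes were highest in that library. KO replicate 3 was the lowest of its group for 7 of the 10, against 38.0% of all genes. The same wells stood out in the wider lists: WT replicate 1 was the highest of its group for 29 of 39 other immediate-early genes, 17 of 21 genes cited as AP-1 targets and 19 of 25 cited as MYC targets, and KO replicate 3 was the lowest for 29, 15 and 18 of them. WT replicate 1 had the fewest counts of the 6 libraries, 31728420, and its mesothelial marker sum was 24.4 CPM, as in WT replicate 2. What set these wells apart was not tested. Without WT replicate 1, 8 of the 10 genes had an adjusted p under 0.05 and 5 were called, adding Fosl1, Egr1 and Myc to Fos and Junb. In the same fit, 4171 of all 14531 genes tested rose and 3991 fell at that level. Of all genes, 1733 were called higher and 885 lower. Leaving out each library in turn gave 6 to 8 of the 10 at that level and 1 to 5 called.

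**Figure D4:**
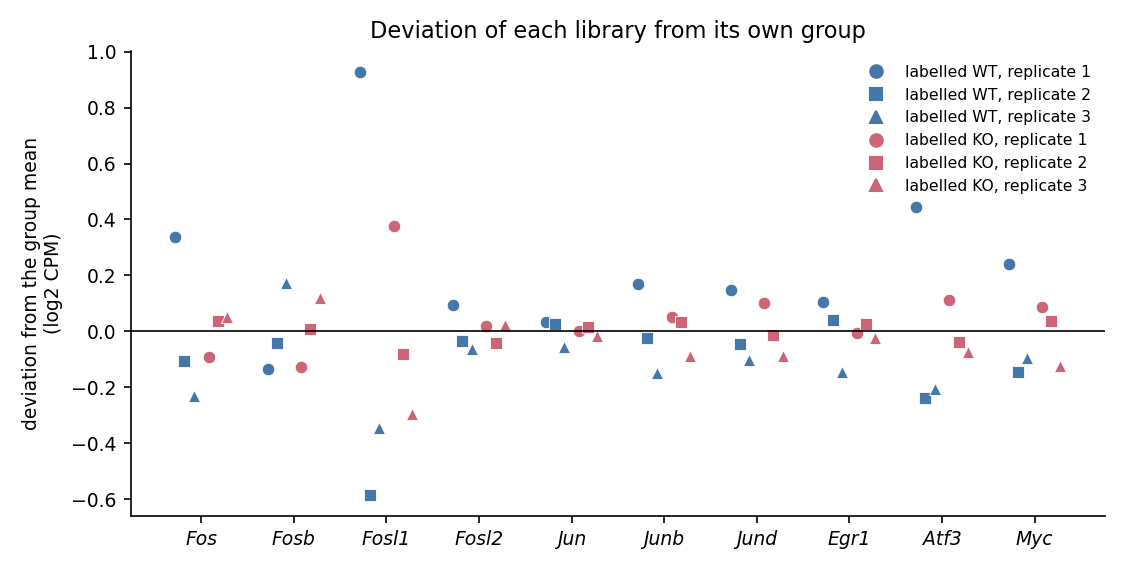
Deviation of each library from the mean of its own group, in log2 CPM, for the 10 genes, with the WT-labelled group in blue and the KO-labelled group in red and marker shape giving the replicate. WT replicate 1 lies above 0 for 9 genes, up to 0.93 for Fosl1, and Jun stays between -0.06 and 0.03 in every library.

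Among other immediate-early genes, 39 of 41 listed were tested, and 20 rose and 5 fell in the KO-labelled wells at an adjusted p under 0.05. That is 25 of 39, where 58.7% of all genes tested passed in either direction. With the 1.5-fold limit 9 were called higher and 2 lower, or 28.2% against 17.7% of all genes, and the median log2 fold change was 0.19, against 0.00 over all genes tested. Ccn1, a matricellular protein gene and target of SRF and YAP, went from 284 ± 22.5 to 705 ± 28.2 CPM (SD, n = 3 each), or 1.31 on the log2 scale (SE 0.05, adjusted p = 2.73e-10). Nfkbiz, which encodes a nuclear IkB protein, rose by 1.20 on the log2 scale (SE 0.04, adjusted p = 4.79e-11). Arc rose by 1.64 from a low level, 0.282 to 0.874 CPM. Klf4, a Krüppel-like factor gene, fell by 1.09 on the log2 scale, from 171 ± 4.85 to 80.4 ± 1.26 CPM (adjusted p = 2.76e-11), and Klf10, which TGF-beta induces early, fell by 0.76. The class therefore did not move as a block, and Dusp1, the phosphatase gene that ends MAP kinase signals, was at a log2 fold change of 0.04 (adjusted p = 0.563) and was picked out after its value was seen.

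**Figure D5:**
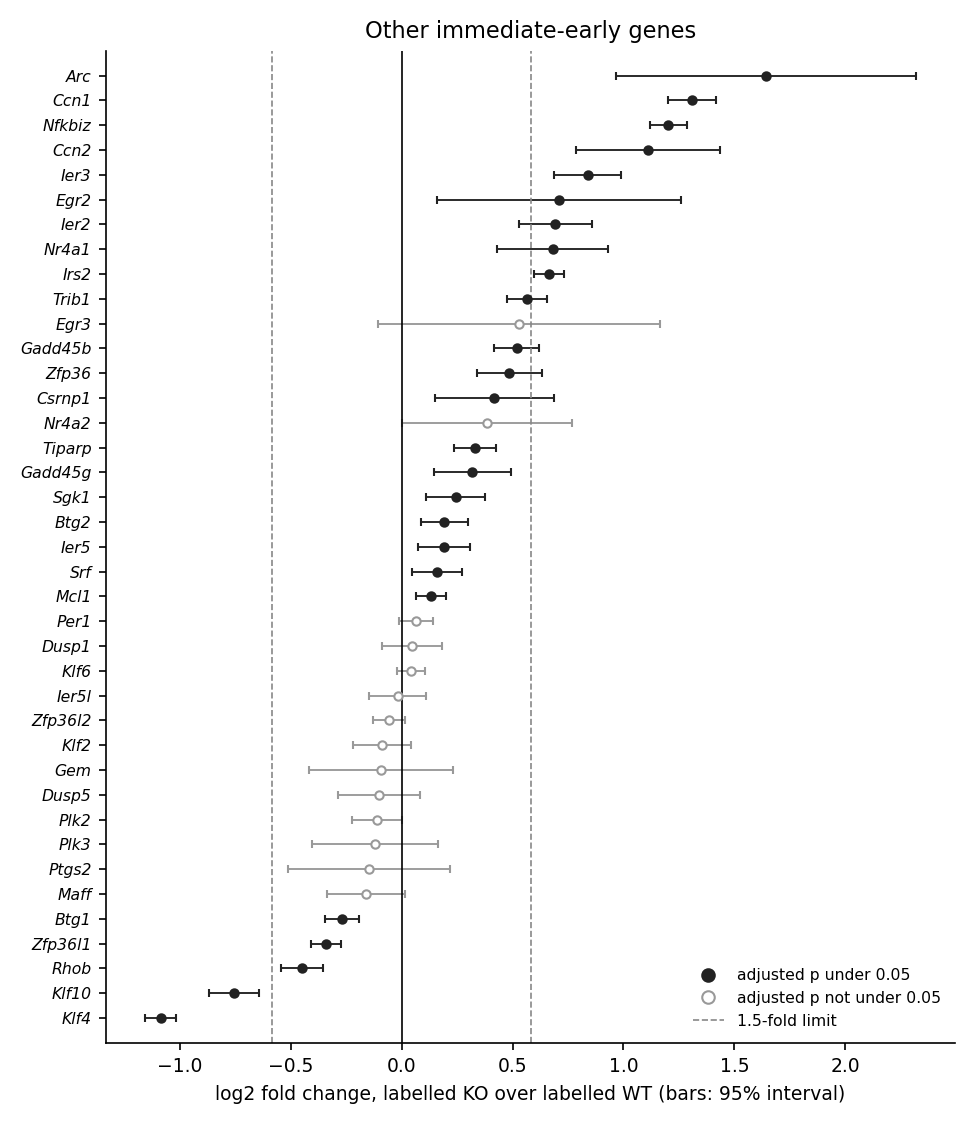
Log2 fold change with 95% interval of 39 other immediate-early genes, KO-labelled over WT-labelled libraries (3 each), with filled points at an adjusted p under 0.05 and dashed lines at 1.5-fold. Arc, Ccn1 and Nfkbiz are at the top at 1.20 to 1.64, and Klf10 and Klf4 at the bottom at -0.76 and -1.09.

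The possible dimer partners and relatives of AP-1 went both ways, mostly by less than 1.5-fold. Of 25 listed bZIP genes 21 were tested, and 6 rose and 8 fell at an adjusted p under 0.05, where 58.7% of all genes passed. With the fold limit 1 was called, against 17.7% of all genes. That gene, Creb5, had 2, 0 and 1 counts against 14, 15 and 14, so that it was at least 4.22-fold higher in the KO-labelled wells against a floor of 3 counts per library. The median of the list was 0.00, with or without Creb5 at its bound. Below the fold limit, Atf5 was at a log2 fold change of 0.52, Cebpd at 0.40, Mafk at -0.51 and Atf6b at -0.36. Jdp2, whose protein pairs with JUN and represses, fell by 0.19 on the log2 scale (adjusted p = 1.84e-04), and Atf2, a JUN partner, was at 0.03 (adjusted p = 0.472). These 6 genes were picked out after their values were seen.

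Upstream of these genes, 32 of 34 listed kinases and factors were tested, 8 rose and 10 fell at an adjusted p under 0.05, and 2 were called, against 58.7% and 17.7% of all genes. Rps6ka3, which encodes the ERK-activated kinase RSK2, fell from 112 ± 6.21 to 59.6 ± 1.70 CPM, a log2 fold change of -0.91 (SE 0.04, adjusted p = 1.94e-09). Mapk12, the gene of p38 gamma, rose by 0.96 on the log2 scale (SE 0.10, adjusted p = 4.81e-06). Of the 11 corepressors and turnover factors of EGR1, JUN and MYC, 4 rose and 4 fell at an adjusted p under 0.05. None (0) passed the fold limit as well. These counts again stand beside 58.7% and 17.7% of all genes.

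In the MYC network, 13 of 14 listed genes were tested, 2 rose and 6 fell at an adjusted p under 0.05, and 4 were called. These counts stand beside 58.7% and 17.7% of all genes, so that the share passing the test was near that of genes at large and the share called was 30.8%. Mycn, the MYC paralog best known from neural and embryonic tissue, rose from 0.918 ± 0.504 to 4.73 ± 0.182 CPM, a log2 fold change of 2.37 (SE 0.22, adjusted p = 1.28e-06). Mycl fell by 1.36 on the log2 scale (adjusted p = 2.89e-04). Among the MAX-binding antagonists of MYC, Mxd3 rose by 1.12 and Mxd4 fell by 0.79. Below the fold limit, Mxi1 fell by 0.36 and Mnt by 0.21, while Mxd1 did not pass the test. Max, the shared partner, fell by 0.37 on the log2 scale (adjusted p = 2.16e-06). Mxi1, Mnt, Mxd1 and Max were picked out after their values were seen.

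Genes cited as AP-1 targets went both ways, with 9 of 21 tested rising, 6 falling and 5 (23.8%) called, beside 58.7% of all genes passing the test and 17.7% called. Ezr, which encodes the membrane linker ezrin, rose by 2.77 on the log2 scale (SE 0.04, adjusted p = 2.64e-14), and Plaur, the urokinase receptor gene, by 1.10 (adjusted p = 8.67e-08). The matrix protease genes Mmp3 and Mmp9 fell by 0.98 and 1.31, and Spp1, the osteopontin gene, by 1.33. Mmp9 is a gene of low counts here, at 19, 18 and 18 against 8, 7 and 10. Il6, the interleukin-6 gene, rose by 0.44 on the log2 scale (adjusted p = 0.00759) and was picked out after its value was seen. Of 25 genes cited as MYC targets, 12 rose, 3 fell and 3 (12.0%) were called, again beside 58.7% and 17.7%, and these 3 were higher: Tert, the telomerase reverse transcriptase gene, by 1.32, Odc1, the first enzyme of polyamine synthesis, by 0.70, and Shmt2, a mitochondrial serine enzyme, by 0.61. The medians of the AP-1 and MYC target lists were 0.06 and 0.12.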

How the data were processed

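The 6 RNAseq libraries comprised 3 labelled WT and 3 labelled KO. Per the submitters' processing notes, STAR 2.7.2b, featureCounts, limma and build GRCm38.p6 were used, with settings and the use of strand not given in the sources used here. The authors deposited raw counts per gene for 14831 genes and log2 CPM values whose offsets to the counts are those of limma's voom. Members were matched by symbol, and positions and exon lengths were taken from GENCODE M21 (GRCm38).

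The counts were tested across all genes with edgeR 4.0.16 in R 4.3.3 (TMM scaling, filterByExpr, quasi-likelihood F test, Benjamini-Hochberg adjustment), and 14289 genes were tested. A gene was called at an adjusted p under 0.05 and at least 1.5-fold. Standard errors came from the fold change and its F statistic, and intervals are at 95%. CPM values use the TMM-scaled library sizes. The members and lists were chosen with earlier results of these data known. Named list genes are the up to 3 called genes in each direction with the largest fold change and no overlap between the groups. Alternatives were other scalings and count filters, DESeq2 1.42.0, limma 3.58.1, other fold limits, other gene lengths and leaving out each library. Libraries of a group differed by more than counting noise (chi-square divided by its degrees of freedom, 2.47 to 7.53).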

Additional observations from a re-analysis of the deposited data

How the results depend on the processing

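Of 380 values recomputed under an alternative, 322 kept the direction and call of a fold change or, for counts and shares, moved by at most 1.5 times or less than 1 SD. With each library left out, the log2 fold change ranged from 0.11 to 0.99 for Fosl1, from 0.52 to 0.68 for Junb, from 0.48 to 0.60 for Egr1, from 0.49 to 0.70 for Myc and from -0.26 to 0.11 for Atf3. The highest Fosl1, Egr1, Junb, Myc and Atf3 values were those without WT replicate 1, where the sign of Atf3 turned to 0.11. The number of the 10 genes called ranged from 1 to 5, and of bZIP partners from 1 to 3. Upper-quartile scaling moved the median of all genes by 0.06 on the log2 scale. It put Egr1 at 0.60 and Myc at 0.63, past the 1.5-fold limit. Then 4 of the 10 genes were called, beside 1821 called higher and 755 lower of all 14289 genes tested. Total-count scaling put Myc at 0.60. A call needs 1.5-fold as well as the test, so these numbers do not cover adjusted p values that crossed 0.05 at smaller folds: 0.0438 for Fosl2 under upper-quartile scaling, 0.0317 without WT replicate 1, and 0.0673 for Jund by limma on the deposited values.

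Without a fold limit, calls numbered 6 of the 10 genes, 14 of 21 bZIP partners and 25 of 39 other immediate-early genes. They numbered 18 of 32 upstream kinases and factors, 8 of 11 corepressors and 8 of 13 MYC network genes. For AP-1 and MYC targets they were 15 of 21 and 15 of 25. Of all genes tested, 58.7% passed by that rule. With a 2-fold limit, calls numbered 0 of the 10 genes, 1 of the bZIP partners, 5 of the other immediate-early genes and 0 of the upstream factors. They numbered 0 of the corepressors, 3 of the MYC network, 4 of the AP-1 targets and 1 of the MYC targets. The share of all genes at that limit was not computed. With at least 10 counts required in every library, Creb5 was not tested and 0 bZIP partners were called.

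Shares of a family moved with the length used. Without division by length, the WT-labelled and KO-labelled shares were 1.47% and 2.39% for Fos, 1.46% and 1.58% for Fosb, 0.968% and 1.22% for Fosl1, 96.1% and 94.8% for Fosl2, 12.4% and 8.71% for Jun, 22.9% and 35.2% for Junb, and 64.7% and 56.1% for Jund. With the longest transcript they were 4.27% and 6.79% for Fos, 22.9% and 34.9% for Junb, and 70.1% and 60.2% for Jund. Those of Fosb were 2.37% and 2.50%, of Fosl1 3.17% and 3.91%, of Fosl2 90.2% and 86.8%, and of Jun 7.05% and 4.89%.

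A floor of 3 counts was 0.0720 to 0.0957 CPM. The intervals of Fosb, Fosl1 and Atf3 allow folds from 0.912 to 1.43, from 0.799 to 2.13 and from 0.699 to 1.18. Fosl1 and Atf3 varied more between wells than 97.7% and 86.9% of genes of like mean CPM. What set the width of these intervals was not tested. No paired analysis was possible because the replicate numbers follow the order of the samples and pair no wells. The cause of the spread of WT replicate 1 was not tested.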
